A study of Sus scrofa with 9 samples.

Results

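The insulin-like growth factors, their receptors and their binding proteins were followed in the germs of the additional molars of Wuzhishan miniature pigs. Members were all probe sets whose only gene symbol on the Affymetrix Porcine Genome Array was IGF1, IGF2, IGF1R, IGF2R or one of IGFBP1 to IGFBP7. The rule found 25 of 23999 tested probe sets, for 8 of the 11 genes looked for. IGF2 had 13 probe sets, IGF1 had 3, IGF1R, IGFBP1 and IGFBP6 had 2 each, and IGF2R, IGFBP2 and IGFBP5 had 1 each. IGFBP3, IGFBP4 and IGFBP7 matched no probe set by symbol and were not analysed here.

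IGF1 and IGF2 are small secreted ligands that drive growth of fetal tissues through IGF1R, a receptor tyrosine kinase that signals through PI3K and AKT and through the MAP kinases. IGF2R carries no kinase and takes IGF2 into the cell for breakdown, and in pigs, as in other mammals, IGF2 is an imprinted gene. The IGF binding proteins hold the ligands outside the cell and, depending on the protein and on the proteases that cut it, limit or prolong their action. Ligands, receptors and binding proteins of the family are all expressed in developing teeth of rodents, in both the enamel epithelium and the mesenchyme.

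Germs with their dental lamina were dissected from fetal mandibles on embryonic days 50, 60 and 70 (E50, E60, E70), and 3 arrays were hybridised for each day. On day 50 the first additional molar was a cap and the second had not begun; by day 60 it was a bell and the second was starting; by day 70 it was a late bell. No animal was treated and all stages are of 1 breed, so each comparison is of a later stage with an earlier one. The arrays are labelled as biological replicates, yet RNA was pooled over germs of a stage and litter, so a p-value here measures only the spread between arrays. The tissue is a mixture, and fewer cells of a type cannot be told apart from less RNA per cell.

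The E50 arrays stood apart from the others technically, and this touches every comparison with E50. A probe set was counted as above background where its signal passed the 95th percentile of 23 control probe sets for foreign sequences on that array. The E50 arrays had backgrounds between 77.7 and 379, the E60 arrays between 37.9 and 54.4, and the E70 arrays between 38.1 and 55.8. EF1A, whose probe sets at either end of the transcript check for shortened RNA, was 49.3 to 55.8 times as bright at its 3' end in E50 samples, 1.42 to 1.56 times in E60 samples and 1.35 to 1.47 times in E70 samples. GAPDH and actin, checked in the same way, were brighter at the 3' end on the later arrays too. E50 ratios were 29.7 to 42.2 for GAPDH and 165 to 2308 for actin. E60 ratios were 6.98 to 9.24 for GAPDH and 30.1 to 34.9 for actin. E70 ratios, 4.36 to 6.47 for GAPDH and 22.9 to 26.3 for actin, lay below those of E60 without overlap. The control transcripts added to each hybridisation had geometric mean signals of 58370 to 66123 on the E50 arrays and 3086 to 4268 on the later arrays. The median signal over all probe sets was 261 to 352 on the E50 arrays and 164 to 184 on the later ones, although every array was scaled to the same mean, so a fold against E50 depends on the scale chosen. Pearson correlations among arrays of a stage were 0.605 to 0.683 for E50, 0.902 to 0.914 for E60 and 0.901 to 0.921 for E70, over all probe sets. Of the 25 members, 7 were above background on all 3 arrays at E50, 14 at E60 and 12 at E70. Among all tested probe sets these shares were 35.0%, 66.6% and 67.0%. What part the state of the E50 arrays has in the changes below was not tested. Nor was the part of the GAPDH and actin difference in the comparison of E70 with E60.

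IGF1, IGF2, IGFBP5 and IGFBP6 each had at least 1 probe set that was lower at E60 than at E50, by 2.09-fold to 4.63-fold. IGFBP2 and the receptors IGF1R and IGF2R did not pass the test in any comparison. Of the 25 members, 6 were called lower at E60 than at E50 and 0 higher in limma's fit (adjusted p under 0.05). That is 24% of members, where 18.5% of all tested probe sets were called, 10.6% lower and 7.85% higher. Between E60 and E70, 0 of 25 were called at adjusted p under 0.05 and 2 had an unadjusted p under 0.05, where 0.421% and 7.73% of all probe sets did. At E70 against E50, 5 were called lower and 0 higher, where 18.8% of all probe sets were called, 10.6% lower and 8.16% higher. The F over the 3 stages called 5 members, which is 20% of them, close to the 17.7% of all probe sets. The median change of the members at E60 against E50 was -1.71 on the log2 scale, where the median over all probe sets was -0.18. That median is the change of an IGF2 probe set (Ssc.9365.6.S1_x_at) that was above background on no array, and 13 of the 25 members are IGF2 probe sets. By gene, the medians were -1.90 for IGF2, -0.50 for IGF1, 1.25 for IGF1R and 0.76 for IGF2R. At E70 against E60 the median change was 0.16 over all members and 0.05 over all probe sets.

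**Figure D1:**
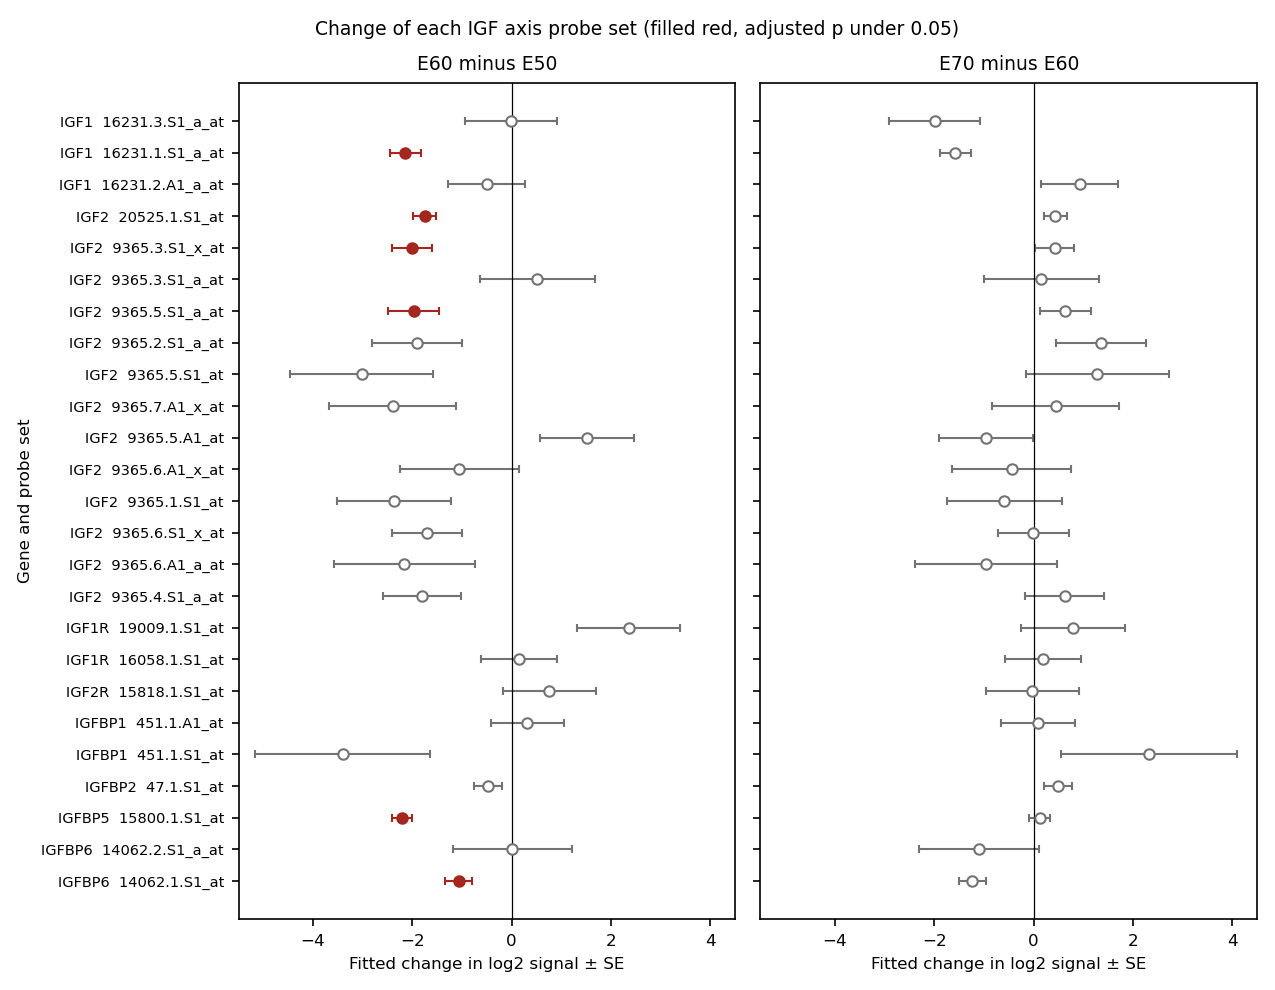
Fitted change in log2 signal of the 25 probe sets at E60 against E50 (left) and at E70 against E60 (right), with bars for the standard error; rows are probe sets ordered by gene and, within a gene, by mean signal. The 6 filled points on the left passed adjusted p under 0.05, all below 0, and no point on the right did.

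Among the ligands, IGF1 had the change that went furthest over the whole interval. One of its probe sets (Ssc.16231.1.S1_a_at) gave signals of 693, 362 and 561 at E50, 116, 127 and 111 at E60, and 33.8, 52.0 and 35.1 at E70. The stages did not overlap, and each later stage lay below the one before it. The probe set fell by 2.14 ± 0.31 on the log2 scale (fitted change ± SE, n = 3 arrays each), or 4.41-fold, at E60 against E50 (limma, adjusted p = 0.00594). At E70 against E50 it fell by 3.72 ± 0.31 on the log2 scale (limma, adjusted p = 0.000695), but only 1 of the 3 E70 arrays was above background, so the 13.1-fold difference is imprecise.

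The lower IGF1 signal at E70 than at E60 was 2.98-fold and did not pass in the fit of all 9 arrays, with a change of -1.58 ± 0.31 on the log2 scale (limma, adjusted p = 0.145). With the E60 and E70 arrays fitted alone, which leaves out the more variable E50 arrays, it passed (limma, adjusted p = 0.0425), and it was then 1 of 25 members called lower, where 0.975% of all probe sets were. With arrays weighted by their agreement with the fit IGF1 also passed (limma, adjusted p = 0.00737), a setting that called 3.89% of all probe sets. Under the other 15 of 17 alternatives it did not pass, with adjusted p up to 0.481 in limma.

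The other IGF1 probe sets did not follow it at E60 against E50. The one with the highest mean signal (Ssc.16231.3.S1_a_at) gave 81.0, 557 and 416 at E50, 259.8, 275 and 257 at E60, and 142, 20.0 and 103 at E70. Its E50 arrays spread around the E60 values, with a change of -0.01 ± 0.92 on the log2 scale (limma, adjusted p = 0.995), and all 3 E70 arrays lay below all 3 E60 arrays, with a change of -1.99 ± 0.92 (limma, adjusted p = 0.698). The third (Ssc.16231.2.A1_a_at) was above background on 2 of the 9 arrays, with signals from 10.0 to 99.6. Probe sets of a gene differ in their probes, so the signal of one is not set against that of another.

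IGF2, the main fetal ligand, was lower at both later stages than at E50 in the probe set with its highest mean signal (Ssc.20525.1.S1_at). The signals were 1184, 1079 and 814 at E50, 299, 284 and 321 at E60, and 401, 381 and 445 at E70. All E60 and E70 arrays were below all E50 arrays, and the E70 arrays were all above the E60 arrays. IGF2 fell by 1.75 ± 0.23 on the log2 scale, or 3.37-fold, at E60 against E50 (limma, adjusted p = 0.00397). It fell by 1.31 ± 0.23 on the log2 scale at E70 against E50 (limma, adjusted p = 0.00884). At E70 against E60 its change was 0.44 ± 0.23 (limma, adjusted p = 0.779), so the later stages were not distinguished from each other.

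A further 2 IGF2 probe sets passed at E60 against E50. The first (Ssc.9365.3.S1_x_at) gave 629, 798 and 926 at E50, 193, 312 and 118 at E60, and 198, 334 and 259 at E70. It fell by 2.01 ± 0.40 on the log2 scale at E60 against E50 (limma, adjusted p = 0.0154) and by 1.59 ± 0.40 at E70 against E50 (limma, adjusted p = 0.0324), a call that held under only 7 of 17 alternatives. Its suffix, x, marks probes that can also match other sequences. The second (Ssc.9365.5.S1_a_at) gave 250.0, 289 and 559 at E50, 52.8, 91.5 and 138 at E60, and 101, 224 and 111 at E70. It fell by 1.98 ± 0.51 on the log2 scale at E60 against E50 (limma, adjusted p = 0.0356), and its change at E70 against E50 was -1.34 ± 0.51 (limma, adjusted p = 0.109). In both, the E60 and E70 arrays were below all E50 arrays and overlapped each other.

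The remaining 10 IGF2 probe sets did not pass in any comparison. Over all 13, the fitted change at E60 against E50 ran from -3.02 to 1.53 on the log2 scale and was below 0 in 11. At E70 against E60 it was below 0 in 5 of 13 and ran from -0.96 to 1.35. Above background on all 3 arrays were 3 of the 13 at E50, 5 at E60 and 5 at E70. At E60 4 of them were above it on no array. The probe sets share a gene and some share probes, so they are not replicates of each other.

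**Figure D2:**
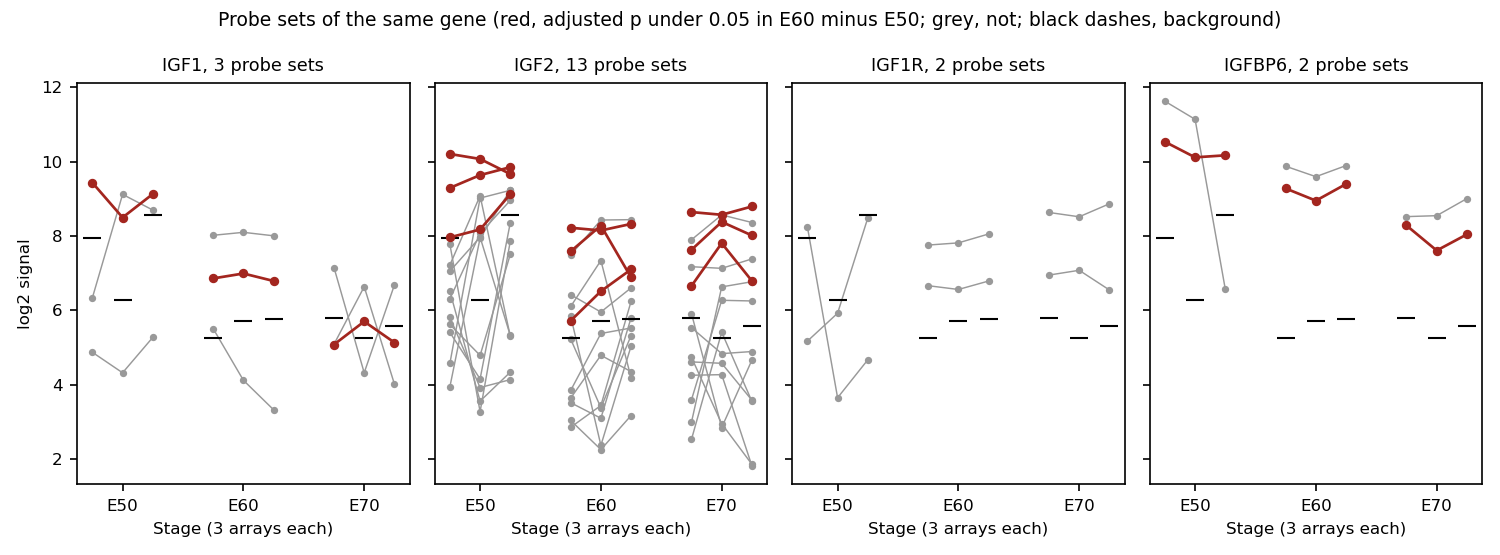
Log2 signal on the 9 arrays of every probe set of IGF1, IGF2, IGF1R and IGFBP6; each line joins the 3 arrays of a stage for 1 probe set, red where it passed adjusted p under 0.05 at E60 against E50, and black dashes are the background of each array. The 3 red IGF2 lines lie above the black dashes at every stage, while many grey lines cross them, most widely at E50.

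**Figure D3:**
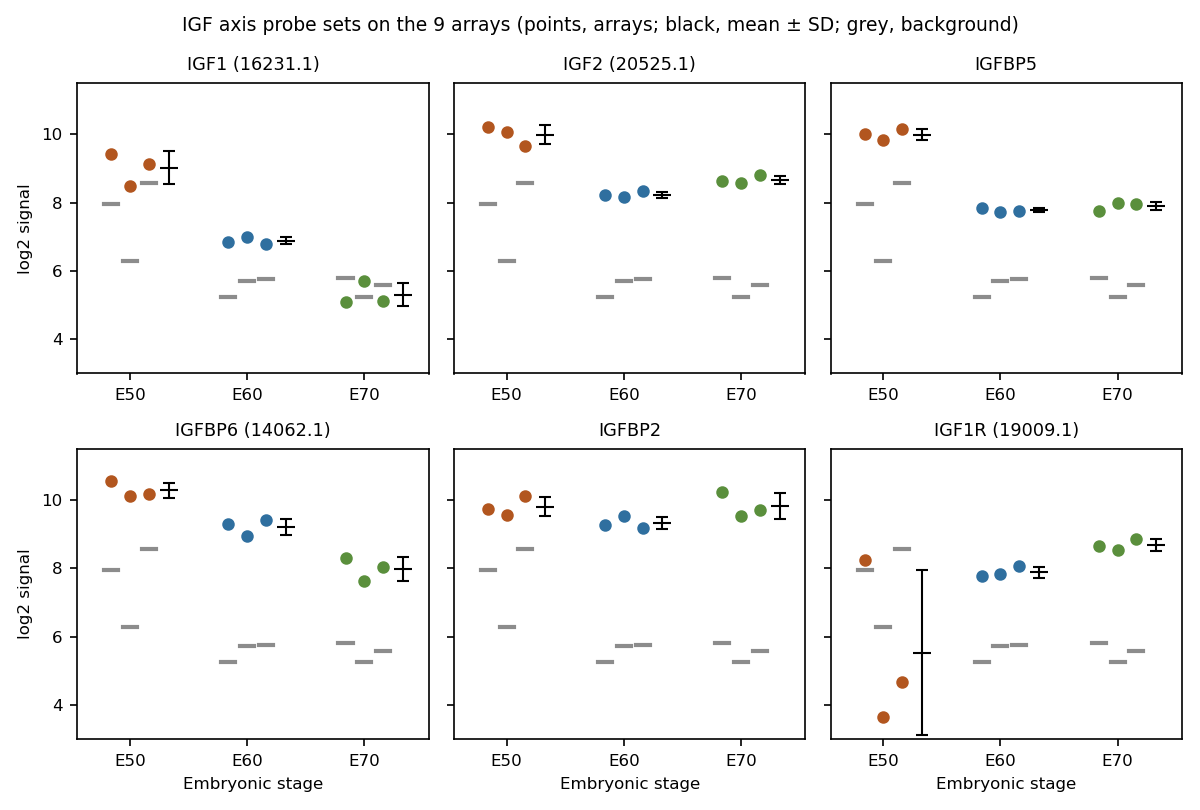
Log2 signal of 6 probe sets on each array (coloured points) by stage, with the stage mean ± SD in black (n = 3) and each array's background in grey. IGF1 and IGFBP6 are drawn by the probe set that the F over the 3 stages called, the other genes by their brightest. The brightest IGF1 and IGFBP6 probe sets, not drawn here, overlap between E50 and E60. IGF1, IGF2, IGFBP5 and IGFBP6 as drawn have all E50 points above all E60 points. IGFBP2 lies between 578 and 1209 throughout, and IGF1R has 2 E50 points far below background.

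The receptors gave no call, and their E50 values were too scattered to place that stage. IGF1R was measured by a probe set (Ssc.19009.1.S1_at) with 304, 12.5 and 25.4 at E50, 216, 226 and 266 at E60, and 398, 367 and 467 at E70. All E70 arrays lay above all E60 arrays and above the E50 arrays, while 2 of the 3 E50 arrays were below background and the remaining one exceeded every E60 array. Its changes were 2.35 ± 1.04 on the log2 scale at E60 against E50 (limma, adjusted p = 0.157) and 3.15 ± 1.04 at E70 against E50 (limma, adjusted p = 0.0753). At E70 against E60 the change was 0.80 ± 1.04 in the fit of 9 arrays (limma, adjusted p = 1), and the 2 stages fitted alone gave adjusted p = 0.0961 in limma. These results change with the first E50 array and with the setting. Under median centring and under the trended robust prior IGF1R was called higher at E70 than at E50 with all 9 arrays (limma, adjusted p = 0.037 and 0.0395), and in neither at E60. Without the first E50 array IGF1R was higher at E60 than at E50 by 3.72 (limma, adjusted p = 0.00195) and at E70 than at E50 by 4.52 (limma, adjusted p = 0.00095), against a stage with both remaining arrays below background.

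The second IGF1R probe set (Ssc.16058.1.S1_at) gave 36.1, 60.7 and 358 at E50, all below the background of their arrays. It gave 101, 94.6 and 111 at E60 and 124, 135 and 93.7 at E70, stages that overlapped. Without the third E50 array this IGF1R probe set was called higher at E60 and at E70 than at E50 (limma, adjusted p under 0.05). Both remaining E50 arrays were below background. IGF2R, which removes IGF2, gave 245, 15.6 and 68.9 at E50, again all below background. It gave 68.8, 119.9 and 156 at E60 and 78.0, 187 and 84.3 at E70, which also overlapped. For both probe sets the E50 level is therefore known only as not above background, and every E60 and E70 signal is below the background of 2 of the 3 E50 arrays.

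Of the binding proteins, IGFBP5, which binds to the extracellular matrix and is abundant in bone, had the smallest spread between arrays and a drop at E60 that held at E70. Its single probe set (Ssc.15800.1.S1_at) gave 1029, 904 and 1135 at E50, 231, 212 and 217 at E60, and 216, 254 and 249 at E70. The E50 arrays were all above the others, and E60 and E70 overlapped. IGFBP5 fell by 2.21 ± 0.21 on the log2 scale, or 4.63-fold, at E60 against E50 (limma, adjusted p = 0.00146). It fell by 2.09 ± 0.21 at E70 against E50 (limma, adjusted p = 0.0012), with a change of 0.12 ± 0.21 between E60 and E70 (limma, adjusted p = 1).

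IGFBP6, which binds IGF2 in preference to IGF1, was lower at each later stage in the probe set Ssc.14062.1.S1_at. The signals were 1487, 1112 and 1155 at E50, 622, 496 and 676 at E60, and 312, 196 and 264 at E70, with no overlap between any stages. It fell by 1.06 ± 0.27 on the log2 scale, or 2.09-fold, at E60 against E50 (limma, adjusted p = 0.0346), and by 2.30 ± 0.27 at E70 against E50 (limma, adjusted p = 0.00223). At E70 against E60 the change was -1.23 ± 0.27 (limma, adjusted p = 0.185), and the 2 stages fitted alone gave adjusted p = 0.0826 in limma. The E60 call is the least secure of the IGFBP6 results, since with each array centred on its median the change was -0.29 (limma, adjusted p = 0.547).

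The second IGFBP6 probe set (Ssc.14062.2.S1_a_at) had 1 array out of place. It gave 3167, 2261 and 95.05 at E50, 942, 775 and 954 at E60, and 368, 375 and 515 at E70. The third E50 array lay below its background of 379, while the other E50 arrays were above every later array, and no change passed, with 0.01 ± 1.201 on the log2 scale at E60 against E50 (limma, adjusted p = 0.996). That array decides the value: without it the IGFBP6 change was -1.59 at E60 against E50 and -2.69 at E70 against E50. It was singled out after its value was seen, so these changes add nothing to the first probe set. All 3 E70 arrays were below all 3 E60 arrays (change -1.10, adjusted p = 0.0738 in limma with these stages fitted alone).

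IGFBP2, a binding protein abundant in fetal tissues, gave no call, and its signals lay between 578 and 1209 on all 9 arrays. It gave 848, 760.5 and 1098 at E50, 613, 742 and 578 at E60, and 1209, 734 and 831 at E70. The E60 arrays were all below the E50 arrays by a small margin, with a change of -0.48 ± 0.28 on the log2 scale (limma, adjusted p = 0.272), and E70 overlapped both. The change at E70 against E50 was 0.02 ± 0.28 (limma, adjusted p = 0.969). On the pig genome assembly Sscrofa11.1, in the RefSeq gene table, IGFBP2 and IGFBP5 are neighbours with 0 genes between them.

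IGFBP1, a binding protein made mainly by liver and by the lining of the uterus, was at background on most arrays. One probe set (Ssc.451.1.S1_at) gave 4.27, 568 and 433 at E50, 5.26, 6.64 and 25.6 at E60, and 48.9, 54.2 and 42.6 at E70. The E50 arrays spread from 4.27 to 568, with 2 of them above background, and no change passed. The other (Ssc.451.1.A1_at) was above background on 2 of 9 arrays, with signals from 14.1 to 103.

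Across the 25 members, all 3 E60 arrays were below all 3 E50 arrays in 8, where this was so in 21.7% of all probe sets. None had all E60 arrays above all E50 arrays, against 17.5%. Between E60 and E70, 4 members were lower without overlap and 3 were higher, against 12.4% and 15.7% of all probe sets. At E70 against E50, 7 were lower without overlap and 1, an IGF1R probe set, was higher, against 19.9% and 17.5%. The called probe sets had unlike patterns after E60: no E70 array of the brightest IGF2 probe set lay below an E60 array and those of IGFBP5 overlapped, while the E70 arrays of the called IGF1 and IGFBP6 probe sets lay below their E60 arrays without a call in the fit of 9 arrays. The difference between these patterns was not tested.

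The genes that act with the IGFs were read from 5 lists of receptors and adaptors, PI3K and mTOR proteins, RAS and MAP kinase proteins, proteins that release or bind IGFs outside the cell, and regulators of IGF mRNAs. Of their 88 genes, 40 had a probe set. At E60 against E50, 2 of 40 rose, 9 fell and 29 did not pass, while 7.20% of all genes rose and 13.7% fell. At E70 against E60, 0 rose, 1 fell and 39 did not pass, while 0.118% of all genes rose and 0.606% fell. The median change of the 40 at E60 against E50 was -0.35 on the log2 scale, against -0.18 over all genes.

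The 2 that rose were EIF4E and CRK. EIF4E, the cap-binding protein of translation that lies downstream of mTOR, had signals of 617 to 726 at E60, against 256 to 331 at E50, and rose by 1.16 ± 0.22 on the log2 scale (limma, adjusted p = 0.0133). CRK, an adaptor that binds tyrosine-phosphorylated proteins, had 1663 to 2051 at E60, against 593 to 1043 at E50, and rose by 1.11 ± 0.31 (limma, adjusted p = 0.0464). The stages did not overlap in either gene. The EIF4E call held under 14 of 17 alternatives and that of CRK under 6.

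All 3 measured genes of the RAS and MAP kinase list fell at E60 against E50. ARAF, a RAF kinase, had 111 to 168 at E60, against 221 to 639.8 at E50, and fell by 1.47 ± 0.40 on the log2 scale (limma, adjusted p = 0.0438). MAP2K2, the kinase below RAF, fell by 1.22 ± 0.28 (limma, adjusted p = 0.0241). MAPK3, also called ERK1, fell by 1.01 ± 0.21 (limma, adjusted p = 0.0172). In the PI3K and mTOR list RHEB, the small GTPase that activates mTOR, fell by 1.06 ± 0.22 (limma, adjusted p = 0.0189), and it was the only one of 11 to fall. ARAF kept its call under 4 of 17 alternatives, MAP2K2 under 10, RHEB under 11 and MAPK3 under 12. With median centring none of the 4 was called, nor with array weights.

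Outside the cell, 3 of 10 measured genes fell at E60 against E50. MMP2, a metalloproteinase that can cut binding proteins, had 908 to 989 at E60, against 2282 to 3424 at E50, and fell by 1.47 ± 0.25 on the log2 scale (limma, adjusted p = 0.00913). CTSD, a lysosomal protease, fell by 0.94 ± 0.24 (limma, adjusted p = 0.0324). STC1, a secreted glycoprotein that inhibits the binding protein protease PAPPA, fell by 0.93 ± 0.24 (limma, adjusted p = 0.0372). STC1 was also the 1 gene called between E60 and E70, with 85.4 to 101 at E70, against 289 to 321 at E60, and it fell by 1.72 ± 0.24 on the log2 scale (limma, adjusted p = 0.0425). The fitted change of 2 other STC1 probe sets had the opposite sign at E60 against E50. Of these calls at E60 against E50, MMP2 held under 16 of 17 alternatives, CTSD under 7 and STC1 under 5, and none of the 3 held under median centring, where CTSD was at -0.17 and STC1 at -0.16. The later STC1 call held under 8 of 17. PAPPA itself had a change of -1.01 ± 1.21 at E60 against E50 (limma, adjusted p = 0.59).

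Among the regulators, GH1 and INS passed at E60 against E50. GH1, growth hormone, had 16.4 to 71.6 at E60, against 269 to 494 at E50, and fell by 3.10 ± 0.67 on the log2 scale (limma, adjusted p = 0.0202), a call that held under 14 of 17 alternatives. GH1 was above background on all 3 arrays at E50, 2 at E60 and 0 at E70. INS, insulin, was below background on all 9 arrays, so its call carries no level. GHR, the growth hormone receptor, did not pass, with a change of 0.81 ± 0.84 (limma, adjusted p = 0.536).

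With each array centred on its median, 8 of the 40 genes rose and 1 fell at E60 against E50, where the deposited scale gave 2 and 9. The whole array turned with them: 23.3% of all probe sets were then called, and 16.3% of those calls were lower, against 57.5% on the deposited scale. Under that centring the median over all probe sets was 0.60 rather than -0.18 on the log2 scale, and under quantile normalization it was 0.00. The members under median centring gave 2 falls at E60 against E50 (IGF1 and IGFBP5) and 0 rises. At E70 against E50 they gave 3 falls (IGF1, IGFBP5 and IGFBP6) and 1 rise (IGF1R), where the deposited scale gave 5 falls and 0 rises.

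Markers of other cell types moved over the same stages. The summed signal of 6 skeletal muscle markers lay between 5505 and 7883 on the E50 arrays, between 1628 and 1873 on the E60 arrays and between 400 and 504 on the E70 arrays, so that it was lower at each later stage. The sums of the macrophage, cartilage and liver lists were also lower at each later stage without overlap. Of the 6 skeletal muscle markers, 4 fell at E60 against E50 (MYLPF, MYL1, TNNC2 and DES) and 2 at E70 against E60 (MYLPF and MYL1). The 4 measured macrophage markers summed to between 2180 and 4038 at E50, between 870.3 and 1099 at E60 and between 477 and 676 at E70, led by AIF1. They did not move together: AIF1 and CD14 fell at E60 against E50, with CD14 above background on no array at E60 or E70. C1QA had a fitted change of 3.09 on the log2 scale there (limma, adjusted p = 0.000624). Its signals were 117 to 143 at E60, against 14.3 to 15.8 at E50, all below background at E50. Every C1QA signal at E60 was also below the background of 2 E50 arrays (248 and 379), so a rise from E50 to E60 is not established. CD163 had a change of 0.15 at E60 against E50 (limma, adjusted p = 0.873). Endothelial markers summed to 3472 to 4222, 3183 to 3581 and 1758 to 2076 at the 3 stages, and 1 of 6 fell at E60 against E50 (ENG), where 13.7% of all genes fell. Without a call, the changes of PECAM1 (0.17), CDH5 (0.26) and VWF (2.43) were above 0, and those of KDR (-1.49) and TEK (-0.50) below it. VWF was above background on 1 array at E50. The part of these cells in the IGF changes was not tested.

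The 5 measured bone markers had sums between 46399 and 56953 at E50, between 58022 and 62147 at E60 and between 10269 and 11109 at E70. The sum was mostly SPP1 and had no drop at E60, but its members did not move together. IBSP rose by 2.37 on the log2 scale at E60 against E50 (limma, adjusted p = 0.00241). SP7 fell by 4.37 (limma, adjusted p = 0.0418), though it was above background on only 1 array at E50 and 1 at E60. The 3 cartilage markers summed to 919 to 1139, 609.7 to 849 and 333 to 436 at the 3 stages, but the single genes did not fall at each step. At E60 against E50, 0 of 3 were called, with changes of -1.39 for COL2A1, -0.21 for SOX9 and -0.004 for ACAN. At E70 against E60 ACAN fell by 1.97 on the log2 scale (limma, adjusted p = 0.042). COL2A1 had a change of -0.47 and SOX9 one of 0.62 there, without a call. For the tooth tissues themselves, the 5 mesenchyme markers summed to 118069 to 129984, 77992 to 80841 and 49838 to 87341, most of it VIM, with MSX1 and VIM above background on all 9 arrays. At E60 against E50 VIM fell by 1.00 on the log2 scale (limma, adjusted p = 0.0418) and MSX1 by 1.03 (limma, adjusted p = 0.0295). The fitted change of the other MSX1 probe set had the opposite sign. POSTN rose by 2.05 (limma, adjusted p = 0.00236) and then fell by 2.11 at E70 against E60 (limma, adjusted p = 0.0127). The marker calls were not followed under the alternatives, such as median centring. The 5 epithelial markers summed to 1940 to 2603, 2136 to 2418 and 5072 to 5807, and the enamel protein gene AMELX was above background on all 3 arrays only at E70. Of the 5, 0 were called at E70 against E60, AMELX included (limma, adjusted p = 0.322), and only ENAM had a fitted change below 0 (-0.38). ENAM, also an enamel protein gene, was above background on 1 array at each stage. At E70 against E50, CDH1 and EPCAM were called higher. The 5 liver markers summed to 8793 to 8954, 3634 to 4080 and 2879 to 3243, most of it APOA1, while ALB was above background on 1, 3 and 1 arrays. SERPINA1 went the other way and rose by 2.68 on the log2 scale at E70 against E60 (limma, adjusted p = 0.0392). Its fitted change at E60 against E50 was 1.57 (limma, adjusted p = 0.0276). SERPINA1 was above background on 0 arrays at E50, 2 at E60 and 3 at E70. All its E60 signals were below the background of every E50 array, so a rise from E50 to E60 is not established.

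**Figure D4:**
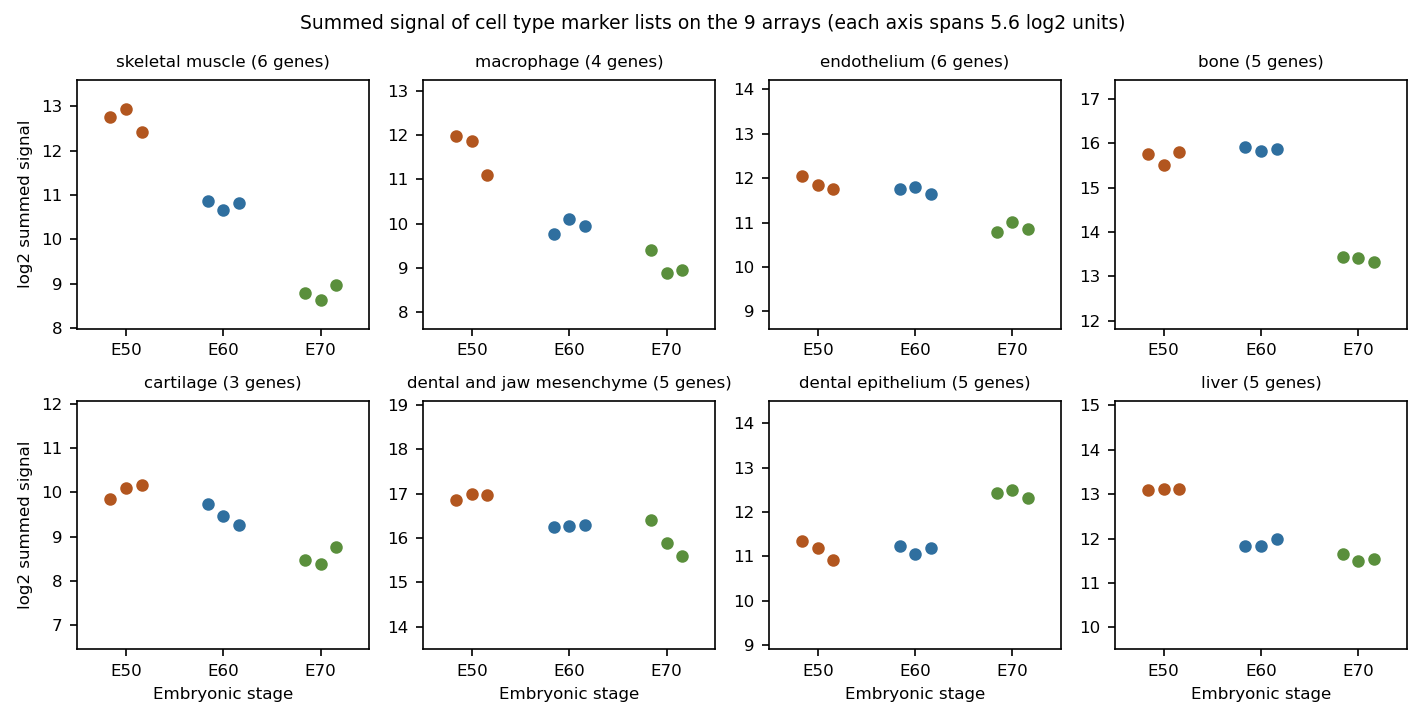
Log2 of the summed signal of each cell type marker list on the 9 arrays, by stage; every vertical axis spans the same number of log2 units. Skeletal muscle is lower at each later stage (all E70 sums at or below 504, all E50 sums at or above 5505), bone is lower only at E70, and dental epithelium is higher at E70.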

How the data were processed

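Pooled RNA of each stage was profiled on Affymetrix Porcine Genome Arrays. The deposited table holds 1 MAS 5.0 signal per probe set and array, an intensity on a linear scale that the authors scaled to a common mean on each array; the labels name MAS5 with no version. An array has no sequencing depth; precision is limited by the number of arrays and by how far signals exceed background. After a floor of 1, signals were log2 transformed, and 124 array controls were set aside from 24123 probe sets. Symbols came from the platform table, where 10069 probe sets have 1 symbol, 198 several and 13732 none.

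Comparisons used limma 3.58.1 (R 4.3.3) in 1 fit of all 9 arrays (lmFit and eBayes, prior degrees of freedom 1.474), in place of the F-test with modelled variance that the methods name. P-values were Benjamini-Hochberg adjusted over 23999 probe sets; a call needed an adjusted p under 0.05. A listed gene was represented by its brightest probe set. Background was the 95th percentile of the control probe sets of an array. The members and the lists were chosen with earlier results of these data known. Listed genes were named where they had 1 of the 4 largest called changes in a direction; MAP2K2, MAPK3, RHEB, CTSD, PAPPA and GHR were named after their values were seen.

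The fit was tested on simulated data with known changes in 200 of 23999 probe sets. The changed ones were drawn only from probe sets with a mean log2 signal above the median of 7.29. Dimmer probe sets, such as the called one of IGF1 at 7.07, were not covered. It recovered 6.5%, 71% and 81.5% of changes of 2, 4 and 8-fold at E60 against E50, with 121, 222 and 220 false calls, and 0%, 65.5% and 80% at E70 against E60, with 0, 12 and 16. At E60 against E50 adjusted p under 0.05 thus did not limit false calls to that share. How far this holds for the real calls was not tested. Alternatives were quantile normalization, median centring, a floor of 16, leaving out dim probe sets, a trended robust prior, array weights, a replicate block, each array left out in turn, and the compared stages fitted alone. Tables and figures used pandas 2.3.3, NumPy 2.4.6 and Matplotlib 3.10.9 in Python 3.11.15.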

Additional observations from a re-analysis of the deposited data

How the results depend on the processing

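The falls of IGF1 (Ssc.16231.1.S1_a_at) and IGFBP5 at E60 and at E70 against E50, and that of IGFBP6 (Ssc.14062.1.S1_at) at E70, passed under all 17 alternatives, and no called change of a member turned its sign under any. Several alternatives alter only the p of a called change, so no sign could turn there. These are the floor, the dim filter, the trended prior, the block, the stages fitted alone and arrays left out of the third stage. All 17 rest on the same E50 arrays, so they do not test the technical state of that stage. IGF2 (Ssc.20525.1.S1_at) lost its E60 call only under median centring (-0.98, adjusted p = 0.0567 in limma), and its E70 call there (-0.60, adjusted p = 0.188 in limma) and with the stages fitted alone (adjusted p = 0.0569 in limma). The calls of Ssc.9365.5.S1_a_at and of IGFBP6 at E60 held under 8 of 17, and that of IGF2 Ssc.9365.3.S1_x_at at E70 under 7, being lost with the replicate block, array weights, median centring, the stages fitted alone and 6 of the 9 arrays left out in turn; at E60 it held under 13.

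The counts moved more. Median centring gave 3 members by the F (5 as reported) and 2 at E60 against E50 (6 as reported). Array weights gave 3 at E60 against E50 and 2 at E70 against E60 (0 as reported), the trended robust prior gave 1 at E70 against E60, and the compared stages fitted alone gave 3, 1 and 3 for E60 against E50, E70 against E60 and E70 against E50 (5 as reported). Leaving out 1 array gave 4 to 8 by the F, 3 to 8 at E60 against E50, 0 at E70 against E60 and 4 to 9 at E70 against E50; the highest came without E50 replicate 1 and the 3 without E60 replicate 1. Of the listed genes, 11 were called at E60 against E50, against 1 with array weights, 2 with the stages fitted alone and 1 to 14 with 1 array left out; at E70 against E60 1 was called, against 0 under quantile normalization and median centring, 2 without dim probe sets when a gene took its brightest remaining probe set (1 with the probe sets as reported), 2 by each gene's probe set of lowest p, and 0 to 1 with 1 array left out. The cause of these moves was not tested.

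Same-numbered arrays did not deviate together (correlations of -0.02 to 0.03), so the numbers do not pair them. With the number as a replicate block, 5 members were called by E60 against E50, 0 by E70 against E60 and 4 by E70 against E50, and 5 and 0 listed genes in the first pair of steps; over all probe sets the block gave 2811 calls at E60 against E50 rather than 4436, and 9 rather than 101 at E70 against E60.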

Other observations

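Among the 5694 probe sets with 1 gene symbol and a mean signal over the median, the ones whose log2 signal followed the main IGF2 probe set most closely over the 9 arrays were those of MRPL52, a mitochondrial ribosomal protein (Pearson r 0.989), MEA1 (0.986) and PTMA, prothymosin alpha (0.985). For IGFBP5, among 5697, they were RPLP1, a ribosomal stalk protein (0.994), SVBP (0.994) and ACTB, cytoplasmic actin (0.993). These are descriptions: the 9 points are 3 arrays at each of 3 stages, and the E50 arrays stand apart in both members of each pair.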
